A study of Homo sapiens with 12 samples.

Results

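Heat shock proteins and their J-domain partners form the protein folding machinery of the cell, and their transcripts were examined here in HGC-27, a line of human gastric cancer cells. Members were taken by gene symbol. The symbols covered the HSPA (HSP70), HSP90 and HSPB (small heat shock protein) genes, the J-domain genes DNAJA, DNAJB and DNAJC, the mitochondrial chaperonin pair HSPD1 and HSPE1, and HSPH1. Of the 20345 rows in the expression table, 72 carried such a symbol, and 58 of these averaged 1 FPKM or more across 12 libraries (FPKM is a fragment count scaled to transcript length and to the mapped total of the library). These 58 genes are the members described here, among 11225 rows that met the same limit and were tested. They comprised 24 DNAJC, 11 HSPA, 9 DNAJB, 5 HSPB, 3 HSP90 and 3 DNAJA genes, together with HSPD1, HSPE1 and HSPH1.

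HSP70 proteins bind exposed hydrophobic stretches of unfolded proteins in a cycle driven by ATP. J-domain proteins deliver the clients and speed up ATP hydrolysis, and nucleotide exchange factors such as HSPH1 and the BAG proteins release them. HSP90 completes the folding of kinases and nuclear receptors, small heat shock proteins hold misfolded proteins without using ATP, and HSPD1 with HSPE1 folds proteins inside mitochondria. The cytosolic genes are induced by the heat shock factor HSF1 when misfolded protein accumulates, and those of the endoplasmic reticulum (ER) by the unfolded protein response. Many tumours carry high levels of both sets.

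The 12 libraries formed 4 groups of 3. HGC-27 cells with no edit named in their labels, called WT as in the text of the series, were sequenced untreated and after treatment with GLUP. Cells with the genotype TEAD4KO were sequenced in the same pair of states. GLUP is a cyclic glue peptide designed on the basis of the cofactor VGLL4. Its target TEAD4 is the transcription factor through which the Hippo effector YAP acts on genes. The comparison across genotypes asked how far responses to GLUP depend on TEAD4. Replicates are numbered 1 to 3 in the untreated groups and 14 to 16 in the GLUP groups. All libraries came from the same cell line. The sources do not state whether the TEAD4KO cells were a single clone, nor whether the libraries of a group came from separate cultures, so each p-value covers only the spread between these libraries.

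FPKM totals ranged from 375361 to 423757 per library, and the depth behind them is unknown. TEAD4 was at 24.4 to 25.8 FPKM in untreated WT and 22.9 to 23.8 FPKM in WT with GLUP, against 27.2 to 30.1 and 26.0 to 29.4 FPKM in the TEAD4KO groups. The transcript was thus not lower under the knockout label, and these are called libraries labelled TEAD4KO. Transcript levels cannot show whether the protein was lost, and the sources do not say how the knockout was made. On the first principal component (39.7% of the variance) WT libraries lay from -16.2 to -3.71. Of the libraries labelled TEAD4KO, replicate 1 of the untreated group (-0.962) and replicate 16 of the GLUP group (-5.26) stood apart from the rest, which lay at 9.91 or above. The label of a gastric cancer cell was set against marker genes. VIM, a mesenchymal marker, was at 1238 to 1704 FPKM and the fibroblast marker COL1A1 at 155 to 304 FPKM. The epithelial markers EPCAM, KRT18 and KRT19 did not exceed 0.290 FPKM, CDH1 reached 3.68 FPKM and KRT8 was at 3.78 to 9.13 FPKM, while the mesenchymal marker CDH2 did not exceed 0.149 FPKM, and the gastric markers TFF1, TFF2 and GKN1 were listed at 0 in every library. In bulk RNA, fewer cells of a type and less RNA per cell cannot be told apart.

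Promoter sequence was examined for the letters of the elements that HSF1 and the unfolded protein response use, since the 2 kinds of stress induce different members. A window from 250 bases before to 50 bases after the annotated start (RefSeq, GRCh38.p14) was found for 54 of the 58 members and compared with 27305 promoters, both strands searched. The 3-unit heat shock element GAANNTTCNNGAA was in 0.487% of all promoters and in 3 of the 54, those of HSPA8, DNAJA1 and DNAJB6. The 2-unit form GAANNTTC, which every 3-unit match contains, was in 6.87% of all promoters and in 8 members (14.8%). It added HSPA1A, HSPA1B, HSPB1, HSPB8 and HSPB6. The other 2-unit form, TTCNNGAA, also part of every 3-unit match, was in 7.84% of all promoters and in 7 members (13.0%). Its matches further added HSPA9, HSPB3 and DNAJC15. The ER stress element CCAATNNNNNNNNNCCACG was in 0.0806% of all promoters and in 2 members, HSPA5 and HSP90B1. The M-CAT letters CATTCC, which TEAD factors bind, were found in the window of 2 members (3.70%), HSPB3 and HSPB7, and in 14.05% of all promoters. These counts describe letters in the window only.

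Printed here, 5′ to 3′ on the strand of the gene, are the 250 bases upstream of the start of chosen members. The first is HSPB1, the only member that passed between genotypes in the main fit, though not in every alternative. The others are the most abundant member (HSPA8), the near-identical pair of inducible HSP70 genes (HSPA1A and HSPA1B) and the ER members HSPA5 and HSP90B1. HSPB1 lies at chr7:76302423-76302672 on the plus strand, HSPA8 at chr11:123062137-123062386 on the minus strand, HSPA1A at chr6:31815293-31815542 and HSPA1B at chr6:31827488-31827737 on the plus strand, HSPA5 at chr9:125241344-125241593 on the minus strand and HSP90B1 at chr12:103930160-103930409 on the plus strand, all on GRCh38.p14. Capitals mark the GAANNTTC match in HSPB1, HSPA1A and HSPA1B, the 3-unit matches in HSPA8 and the ER stress element in HSPA5 and HSP90B1, on either strand.
HSPB1: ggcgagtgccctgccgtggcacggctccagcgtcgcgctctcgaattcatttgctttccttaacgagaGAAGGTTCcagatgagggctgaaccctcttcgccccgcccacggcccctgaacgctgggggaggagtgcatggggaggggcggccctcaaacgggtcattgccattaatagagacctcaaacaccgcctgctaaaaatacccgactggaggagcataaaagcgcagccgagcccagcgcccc
HSPA8: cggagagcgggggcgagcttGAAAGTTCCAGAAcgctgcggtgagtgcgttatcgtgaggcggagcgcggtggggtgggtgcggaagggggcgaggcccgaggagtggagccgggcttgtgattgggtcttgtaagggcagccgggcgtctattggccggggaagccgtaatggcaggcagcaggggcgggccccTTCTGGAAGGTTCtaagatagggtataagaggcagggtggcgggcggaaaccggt
HSPA1A: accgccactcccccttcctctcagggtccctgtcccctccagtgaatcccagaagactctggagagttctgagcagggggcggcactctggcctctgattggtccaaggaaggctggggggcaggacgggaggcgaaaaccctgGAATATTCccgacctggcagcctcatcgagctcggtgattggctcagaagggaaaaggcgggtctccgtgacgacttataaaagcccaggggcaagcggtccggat
HSPA1B: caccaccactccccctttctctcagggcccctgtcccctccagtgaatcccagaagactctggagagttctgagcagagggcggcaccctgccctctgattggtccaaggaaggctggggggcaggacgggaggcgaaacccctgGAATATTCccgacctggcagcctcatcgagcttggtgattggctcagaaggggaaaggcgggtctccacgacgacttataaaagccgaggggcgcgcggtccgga
HSPA5: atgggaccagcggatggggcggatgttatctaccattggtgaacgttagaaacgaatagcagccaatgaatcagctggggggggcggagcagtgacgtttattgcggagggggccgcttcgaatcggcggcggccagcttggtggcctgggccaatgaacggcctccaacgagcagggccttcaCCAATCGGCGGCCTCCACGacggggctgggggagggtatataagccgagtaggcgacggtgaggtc
HSP90B1: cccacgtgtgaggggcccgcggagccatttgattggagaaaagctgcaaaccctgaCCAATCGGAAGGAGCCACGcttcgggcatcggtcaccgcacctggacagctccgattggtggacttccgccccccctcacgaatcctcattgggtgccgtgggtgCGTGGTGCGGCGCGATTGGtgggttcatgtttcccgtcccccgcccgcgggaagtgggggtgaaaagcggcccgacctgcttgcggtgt

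HSPA8 carried a 3-unit match at -230 and again at -55 from its start. The HSPB1 match began at -182, and those of HSPA1A and HSPA1B at -106 and -105. HSP90B1 held the ER stress element at -194 and, on the opposite strand, at -89. The upstream sequences of HSPA1A and HSPA1B were identical at 235 of 249 aligned bases (94.4%). Their transcripts are near-identical as well, so how reads were divided between them is uncertain and their values were read together.

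Levels in untreated WT cells differed widely between families. The cytosolic HSP70 HSPA8, which folds proteins in unstressed cells, was highest at 1448 ± 46.6 FPKM (SD, n = 3, as for all levels given as mean ± SD). The constitutive and inducible cytosolic HSP90 genes HSP90AB1 and HSP90AA1 followed at 1195 ± 20.6 and 881 ± 19.3 FPKM. These 3 genes held 54.9% of the summed FPKM of the members, and the top 10 held 83.1%. Of the 58 members 10 exceeded 100 FPKM, 28 lay between 10 and 100 FPKM and 20 were below 10 FPKM. The member median was 15.4 FPKM, against 10.4 FPKM over all tested rows.

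Compartment genes formed the next tier. The mitochondrial chaperonin HSPD1 was at 545 ± 11.8 FPKM and its lid HSPE1 at 160 ± 8.85 FPKM, and the mitochondrial HSP70 HSPA9 was at 209 ± 0.52 FPKM. The ER HSP70 HSPA5 (BiP) and the ER HSP90 HSP90B1 (GRP94) were at 236 ± 4.26 and 227 ± 6.82 FPKM. HSPB1, the small heat shock protein also called HSP27, was at 229 ± 19.6 FPKM, so its spread covered the means of both ER genes. Among exchange factors, HSPA4 was at 80.1 ± 1.39 and HSPH1 at 75.9 ± 2.85 FPKM. The inducible pair was far lower than HSPA8, with HSPA1B at 45.6 ± 2.36 and HSPA1A at 26.6 ± 1.31 FPKM, and HSPA13, an ER-associated HSP70, was at 15.96 FPKM.

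J-domain genes spanned a lower range, with none above DNAJA1. DNAJA1, the main cytosolic partner of HSPA8, was at 207 ± 2.58 FPKM, with the mitochondrial DNAJA3 at 41.8 FPKM. DNAJB1, the heat-inducible HSP40, was at 76.99 ± 1.35 FPKM, the ER protein DNAJB11 at 65.0 ± 2.88 FPKM and DNAJB6, which suppresses aggregation of glutamine-rich proteins, at 56.1 ± 5.11 FPKM. In the DNAJC family DNAJC7 and DNAJC8 were highest at 71.1 ± 2.49 and 66.8 ± 1.96 FPKM, while the family median was 11.1 FPKM. The ER stress genes DNAJC3 and DNAJB9 were at 11.1 and 4.40 FPKM. In the small heat shock family, HSPB8 followed HSPB1 at 12.1 ± 0.39 FPKM, and HSPB3, HSPB7 and HSPB6 were at 3.91, 1.75 and 1.68 FPKM.

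**Figure D1:**
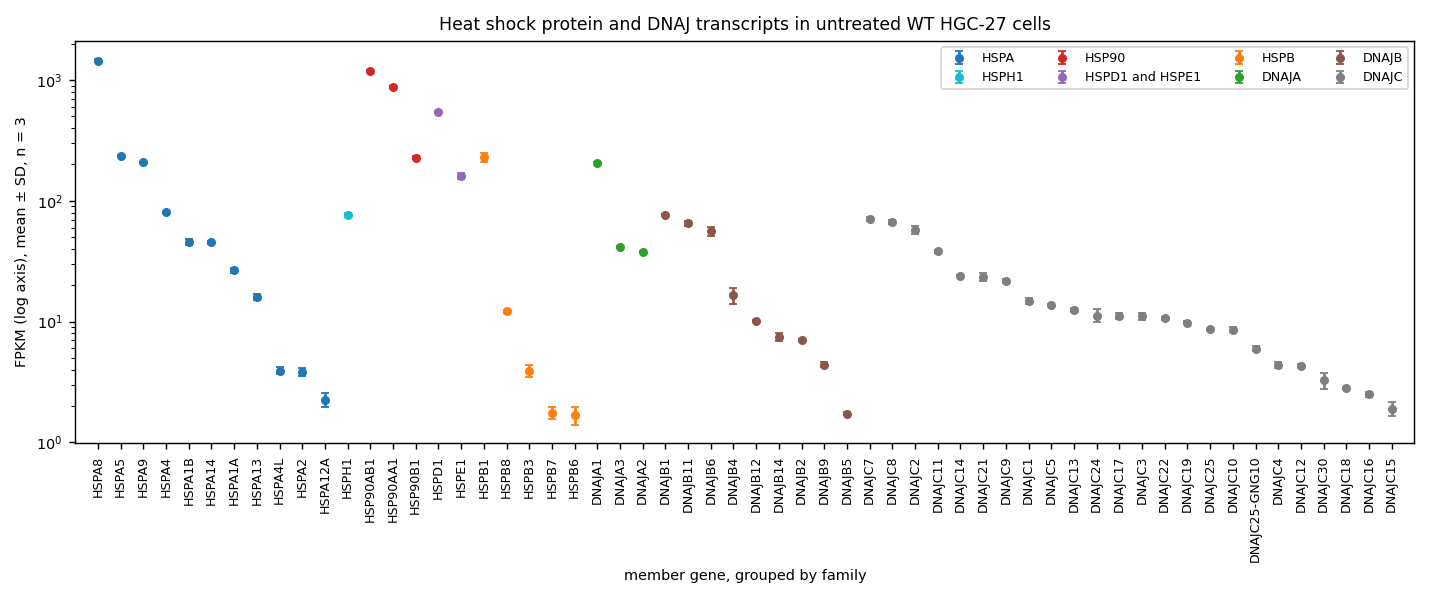
FPKM of each of the 58 members in untreated WT libraries on a log axis, grouped and coloured by family, as mean (point) and SD (bar) of 3 libraries. HSPA8 (1448 FPKM), HSP90AB1 (1195 FPKM) and HSP90AA1 (881 FPKM) stand at the top, and HSPB6 (1.68 FPKM) is the lowest.

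Some of these levels depend on how shared reads were counted. The annotation (GENCODE, GRCh37) names pseudogenes for 14 members, among them 26 for HSPE1, 18 for HSPD1, 17 for HSPA8 and 8 for DNAJB6. Overlap with a protein-coding gene on the same strand was found for 9 members, such as HSPE1 with HSPE1-MOB4, and on the opposite strand for 18, and these sets share genes with each other and with the 14. The limit of 1 FPKM left out 14 matching rows. Just inside it were DNAJB5, HSPB6 and DNAJC15 with means of 1.59, 1.82 and 1.99 FPKM over all libraries, and just outside were DNAJC27, DNAJB13 and HSPA12B with 0.881, 0.770 and 0.686 FPKM. HSPA6, a strictly stress-induced HSP70 named here after its values were seen, stayed below the limit with group means of 0.37, 0.30, 0.17 and 0.18 FPKM in the order untreated WT, WT with GLUP, untreated TEAD4KO and TEAD4KO with GLUP.

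Summed over the 58 members, FPKM came to 6420 ± 88.8 in untreated WT, 6004 ± 193 in WT with GLUP, 6771 ± 473 in untreated libraries labelled TEAD4KO and 6459 ± 473 in those with GLUP. As a share of all FPKM this was 1.68% ± 0.0194, 1.58% ± 0.0358, 1.64% ± 0.0737 and 1.57% ± 0.0846. WT libraries with GLUP (1.54% to 1.61%) thus lay below all untreated WT libraries (1.67% to 1.71%), while the TEAD4KO groups overlapped. The HSP90 family summed to between 2158 ± 73.6 FPKM (WT with GLUP) and 2403 ± 220 FPKM (untreated libraries labelled TEAD4KO). The HSPB family, nearly all of it HSPB1, was at 248 ± 20.3 and 231 ± 3.47 summed FPKM in WT without and with GLUP, and at 343 ± 24.7 and 334.5 ± 51.5 in libraries labelled TEAD4KO.

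The first comparison asked whether GLUP moved the chaperone genes in WT cells. No member passed (limma, Benjamini-Hochberg adjusted p under 0.05), and over all tested rows 0.00891% did. The differences were small, from -0.19 to 0.22 on the log2(FPKM + 1) scale, and the 95% confidence intervals of all 58 members lay within 1.5-fold. An unadjusted p under 0.05 was found for 3 members (5.17%), all lower, against 3.43% of all tested rows. The 3 were the inducible HSP70 genes and DNAJB1, the HSP40 that works with them. The HSP70 pair is near-identical in sequence, so its genes are not separate observations in this or later counts.

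Untreated WT libraries gave HSPA1A levels of 28.04, 25.6 and 26.1 FPKM, and GLUP libraries 24.8, 24.1 and 20.8 FPKM. For HSPA1B these were 48.0, 43.3 and 45.4 FPKM against 42.4, 41.7 and 35.4 FPKM. DNAJB1 started from 76.9, 78.4 and 75.7 FPKM, and GLUP libraries held 72.7, 72.2 and 66.6 FPKM. In all of these genes the GLUP libraries lay below every untreated library, with GLUP replicate 16 the lowest. The log2 differences were -0.19 ± 0.08 (SE) for HSPA1A, -0.19 ± 0.09 for HSPA1B and -0.13 ± 0.06 for DNAJB1, each with a limma adjusted p of 0.999. When 1 library was left out, the differences came closest to 0 without GLUP replicate 16, at -0.11, -0.11 and -0.086. Under the alternatives tried, the lowest adjusted p of the 3 was 0.237.

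Most abundant cytosolic members were arranged alike. HSPA8 levels were 1486, 1396 and 1461 FPKM before and 1307, 1343 and 1210 FPKM under GLUP (log2 difference -0.17 ± 0.10). The exchange factor HSPH1 was at 79.0, 75.3 and 73.5 FPKM and then 73.1, 71.2 and 66.4 FPKM (-0.11 ± 0.06), and HSP90AA1 at 892, 891 and 858 FPKM and then 837, 827 and 763 FPKM (-0.12 ± 0.09). Groups did not overlap in these 3 genes, and none passed. They were also apart, with GLUP lower, for the mitochondrial HSPD1 and HSPA9 and the ER gene HSPA5, while HSPE1 and HSP90B1 overlapped. In total 16 of 58 members had all GLUP libraries below all untreated ones, against 7.16% of all rows, and 3 members (HSPB7, DNAJB12 and DNAJC4, the latter 2 named after their values were seen) had them above, against 10.2% of all rows. The median difference was -0.040 over members and 0.0088 over all tested rows, with 19 members higher and 39 lower. The ER chaperones HSPA5 and HSP90B1 differed by -0.050 and -0.0049, and the sign of both depended on the scaling, since quantile normalization gave 0.0067 and 0.049.

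GLUP was then examined in libraries labelled TEAD4KO. No member passed, against 0.0445% of all tested rows, and 4 members (6.90%) had an unadjusted p under 0.05, against 6.38% of all rows. The groups did not overlap for 1 member that was higher (2.85% of all rows) and 2 that were lower (3.98% of all rows). The intervals of 57 members lay within 1.5-fold, DNAJC25-GNG10 being the exception. This row stands for transcripts that read through from the J-domain gene DNAJC25 into GNG10, and since it shares exons with both genes its level is uncertain. Untreated libraries labelled TEAD4KO held 7.82, 6.88 and 6.08 FPKM of it, those given GLUP 4.35, 5.67 and 3.89 FPKM, a log2 difference of -0.50 ± 0.12 (SE, limma adjusted p = 0.266). DNAJC25 itself was at 10.2, 8.87 and 8.30 FPKM and then 7.29, 8.33 and 8.92 FPKM, which overlap.

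HSPB7, a small heat shock protein best known from heart muscle, was the member with the largest rise in value. Libraries labelled TEAD4KO held 1.96, 1.59 and 1.94 FPKM before and 2.66, 2.63 and 2.09 FPKM under GLUP (log2 difference 0.29 ± 0.11, limma adjusted p = 0.670). In WT, levels of 1.89, 1.85 and 1.52 FPKM stood against 2.05, 2.17 and 2.36 FPKM under GLUP. The GLUP libraries were thus above the untreated ones in both genotypes, at levels of about 2 FPKM where the added pseudocount shrinks differences. The splicing-associated J-protein DNAJC17 was at 13.8, 13.0 and 13.5 FPKM and then 12.1, 12.3 and 10.8 FPKM (-0.18 ± 0.07, limma adjusted p = 0.720).

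The inducible HSP70 genes and DNAJB1 gave smaller differences than in WT. HSPA1A levels were 28.2, 25.7 and 23.9 FPKM, and 26.02, 24.6 and 22.7 FPKM under GLUP, and its log2 difference of -0.081 turned to 0.028 without untreated replicate 1 and GLUP replicate 16, the libraries labelled TEAD4KO that lay nearest to WT. HSPA1B was at 52.7, 45.1 and 42.0 FPKM and then 44.3, 42.7 and 41.3 FPKM (-0.12, and -0.0025 without those libraries), DNAJB1 at 84.1, 76.1 and 82.9 FPKM and then 77.9, 72.8 and 74.7 FPKM (-0.11). HSPA8 was at 1385, 1585 and 1692 FPKM and then 1540, 1510 and 1234 FPKM (-0.12, and from -0.20 to -0.022 when 1 library was left out, the latter without GLUP replicate 16). All 4 overlapped between the groups. The interaction, the difference between the GLUP effects of the genotypes, passed for no member (0.00891% of all rows). Its lowest unadjusted p among members was that of DNAJC25-GNG10 (-0.45 ± 0.17 SE, limma adjusted p = 1.00), followed by DNAJC21, a ribosome assembly factor, and DNAJC12, a partner of aromatic amino acid hydroxylases.

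When GLUP was assessed over both genotypes, no member passed, against 0.258% of all rows. The lowest adjusted p was that of HSPB7 (log2 difference 0.25 ± 0.07 SE, limma adjusted p = 0.333), then DNAJC25-GNG10 (-0.27 ± 0.09, 0.429) and DNAJB1 (-0.12 ± 0.04, 0.514). Of the members 7 (12.1%) had an unadjusted p under 0.05, 1 higher and 6 lower, against 7.14% of all rows. HSPA1A and HSPA1B were among the lower ones at -0.13 and -0.15, and the intervals of all 58 members lay within 1.5-fold.

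**Figure D2:**
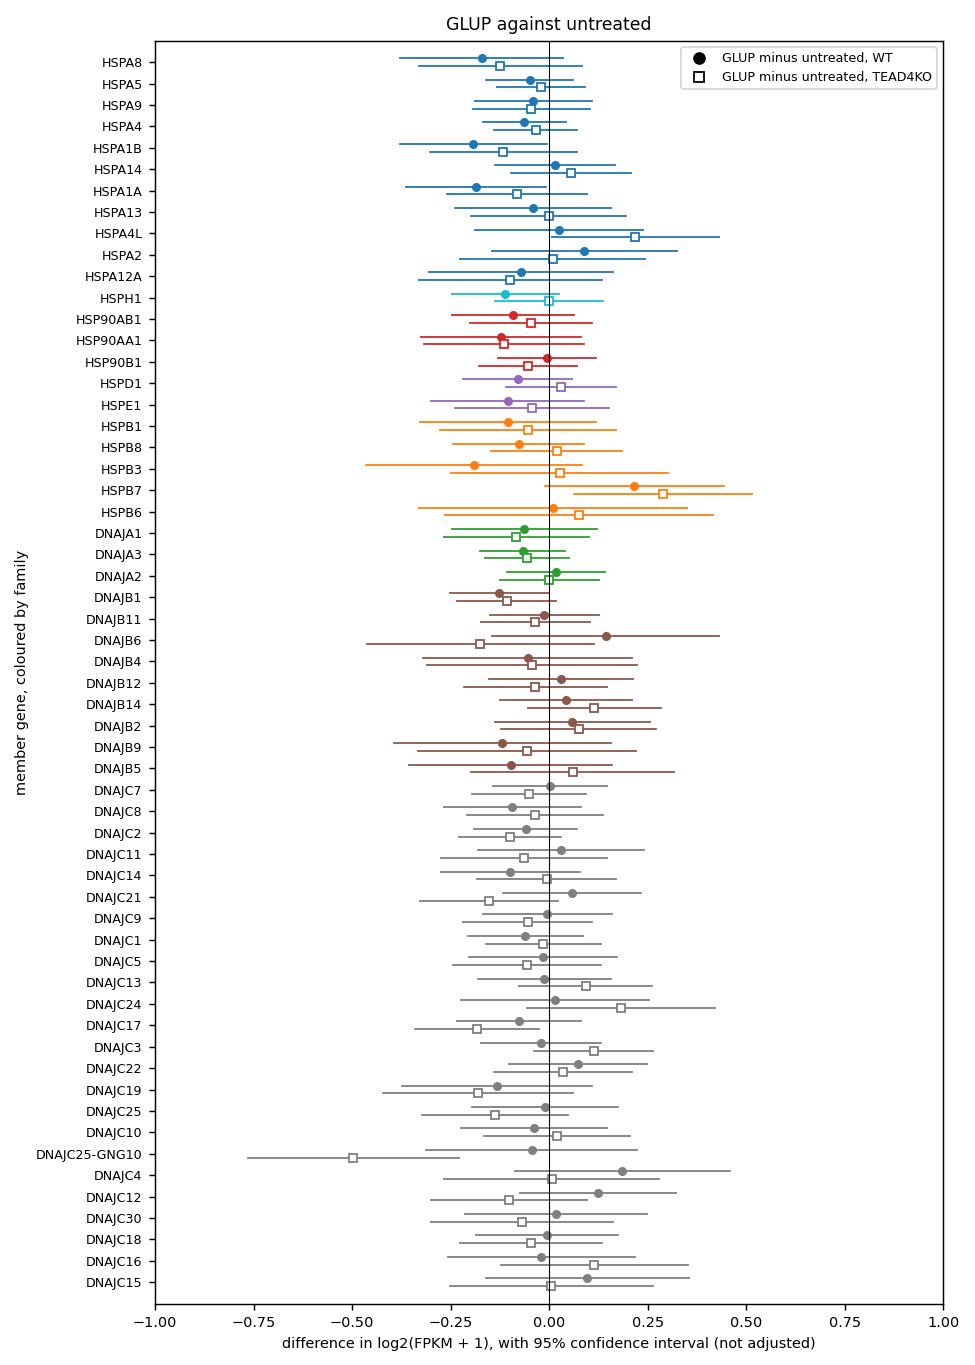
Difference in log2(FPKM + 1) between GLUP and untreated libraries for each of the 58 members, with 95% confidence intervals not adjusted for multiple testing, in WT (filled circles) and in libraries labelled TEAD4KO (open squares), coloured by family. HSPA1B at -0.19 in WT is among the lowest filled points, and DNAJC25-GNG10 at -0.50 in libraries labelled TEAD4KO is the lowest open point.

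Genotype was compared next, first without treatment. HSPB1 was the only member that passed, and it was higher in libraries labelled TEAD4KO, where 5.42% of all tested rows passed (4.92% higher and 0.499% lower). HSPB1 (ENSG00000106211, GRCh37 chromosome 7, 75931990 to 75933612, plus strand) binds unfolded proteins as large oligomers and also acts on actin filaments. It was at 245, 235 and 207 FPKM in untreated WT and 311, 351 and 302 FPKM in untreated libraries labelled TEAD4KO, so the lowest of the latter exceeded the highest WT library. The means were 229 ± 19.6 and 322 ± 26.0 FPKM, a log2 difference of 0.49 ± 0.10 (SE, 95% confidence interval 0.27 to 0.71) or 1.40-fold (limma adjusted p = 0.0162).

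The same gene was the only member that passed with GLUP, where 5.84% of all rows did (4.91% higher and 0.935% lower). It was at 213, 215 and 209 FPKM in WT and 365, 309 and 262 FPKM in libraries labelled TEAD4KO, again without overlap, and GLUP replicate 16 was the lowest of the latter. The means were 212 ± 3.32 and 312 ± 51.6 FPKM, a log2 difference of 0.54 ± 0.10 (SE, 95% confidence interval 0.32 to 0.76) or 1.46-fold (limma adjusted p = 0.00890). Without untreated replicate 1 and GLUP replicate 16 of the libraries labelled TEAD4KO, the differences were 0.51 ± 0.09 (adjusted p = 0.00313) and 0.66 ± 0.09 (adjusted p = 0.000539). Those libraries lay nearest to WT, so leaving them out favours a genotype difference and these p-values are no support. Differences between GLUP and untreated were small, at -0.10 in WT and -0.053 in libraries labelled TEAD4KO, the latter turning to 0.013 after the GC and length correction and 0.043 without those libraries.

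The HSPB1 transcript is short and rich in GC, at 1455 bases and 64.3% GC, against medians of 3922 bases and 47.7% GC over the tested rows and 3734.5 bases and 44.3% GC over the members. When the dependence of each library on GC content and length was removed, the differences were 0.22 ± 0.08 in untreated (limma adjusted p = 0.182) and 0.31 ± 0.08 in GLUP-treated cells (adjusted p = 0.0605), and no member passed in either comparison, against 1.99% and 3.73% of all rows. With the replicate number as an added block, HSPB1 passed with GLUP (adjusted p = 0.0488), where 4.81% of all rows did. The untreated call also rested on single libraries, with an adjusted p of 0.0974 without WT replicate 3 and 0.0712 without TEAD4KO replicate 2.

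**Figure D3:**
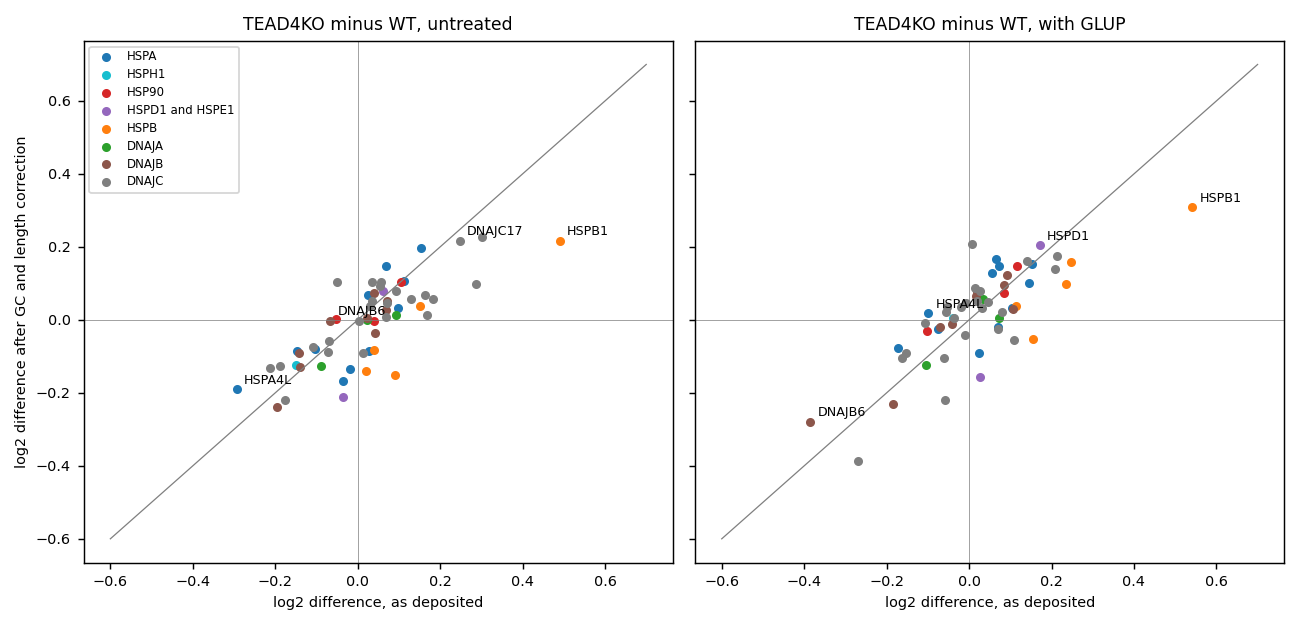
Difference in log2(FPKM + 1) between libraries labelled TEAD4KO and WT for each member as deposited (x axis) and after each library was corrected for GC content and transcript length (y axis), untreated (left) and with GLUP (right), with the line of equality. HSPB1 is the point farthest to the right in both panels and lies below the line, at 0.49 before and 0.22 after correction untreated and at 0.54 and 0.31 with GLUP.

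Other small heat shock genes were also higher in value, and none passed. HSPB8, which works with the exchange factor BAG3 in the disposal of aggregates, was at 12.4, 12.3 and 11.7 FPKM in untreated WT and 12.9, 12.7 and 15.3 FPKM in untreated libraries labelled TEAD4KO (log2 difference 0.15, limma adjusted p = 0.274). With GLUP it was at 12.2, 11.2 and 11.03 FPKM against 14.1, 13.6 and 13.7 FPKM (0.25 ± 0.08 SE, limma adjusted p = 0.0746). Neither pair of groups overlapped, and with GLUP HSPB8 passed when untreated replicate 3 of the libraries labelled TEAD4KO was left out (adjusted p = 0.0342). That library is in neither GLUP group, so the difference stayed at 0.25 and this pass is no support. Over the 5 HSPB genes the median difference was 0.091 untreated and 0.24 with GLUP, with all 5 higher in both comparisons, and -0.083 and 0.098 after the GC and length correction.

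Of the members, DNAJB6 lay furthest below WT when the GLUP-treated genotypes were compared. It was at 65.1, 63.2 and 57.8 FPKM in WT and 53.5, 50.8 and 38.7 FPKM in libraries labelled TEAD4KO, so the groups did not overlap, with GLUP replicate 16 far below the others (log2 difference -0.39 ± 0.13 SE, limma adjusted p = 0.105). Deviations of GLUP libraries with the same number correlated at 0.106, 0.152 and 0.336 for 14, 15 and 16, and those with unlike numbers at up to 0.134. The numbers 14 were thus not more alike than unlike ones. A fit that blocked on the number passed 2 members (9.48% of all rows), HSPB1 higher and DNAJB6 lower (adjusted p = 0.0357). Without untreated replicate 1 and GLUP replicate 16, left out because they lay nearest to WT, the difference was -0.25 ± 0.08 (adjusted p = 0.0302). That p-value is no support, as the choice followed from the data. After the GC and length correction the difference was -0.28 (adjusted p = 0.413). DNAJB6 also passed without untreated replicate 1 of the libraries labelled TEAD4KO alone (adjusted p = 0.0393). That library is in neither group compared, so the difference stayed at -0.39 and this pass is no support. Untreated values were 54.2, 61.9 and 52.2 FPKM in WT against 42.8, 58.3 and 61.0 FPKM, which overlap.

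The major cytosolic chaperones did not pass between genotypes. HSP90AA1 was at 811, 1028 and 1021 FPKM in untreated libraries labelled TEAD4KO, around the WT values given above, and replicate 1 was the low one. Its log2 differences were 0.11 without and 0.12 with GLUP (limma adjusted p = 0.554 and 0.481). HSPA8 differed by 0.098 and 0.14 (adjusted p = 0.597 and 0.376). Both depended on the libraries that lay near WT. Leaving out untreated replicate 1 and GLUP replicate 16 gave 0.22 (adjusted p = 0.0159) and 0.19 (adjusted p = 0.0200) for HSP90AA1, and 0.18 (adjusted p = 0.0533) and 0.25 (adjusted p = 0.0104) for HSPA8. That choice favours genotype differences, since it removes the libraries nearest to WT, so these p-values are no support. In that fit 5 members passed untreated, where 19.9% of all rows did, and 9 with GLUP, where 27.8% did. All were higher in libraries labelled TEAD4KO except DNAJB6.

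Exchange factors of the HSP110 group were lower in value in untreated libraries labelled TEAD4KO. HSPH1 was at 64.9, 68.8 and 71.6 FPKM, below all 3 WT libraries (log2 difference -0.15, limma adjusted p = 0.188). HSPA4 was at 73.9, 72.6 and 76.9 FPKM against 80.9, 80.9 and 78.5 FPKM (-0.10, adjusted p = 0.242). HSPA4L, named after its values were seen, was at 2.68, 2.78 and 3.62 FPKM against 4.21, 3.84 and 3.69 FPKM (-0.29 ± 0.10 SE, adjusted p = 0.1001). After the GC and length correction its adjusted p was 0.314. It passed when the highest library labelled TEAD4KO, replicate 3, was left out (-0.40, adjusted p = 0.0279). Leaving that library out must widen the difference, so this pass is no support. None of the others passed when a library was left out, and with GLUP the HSPH1 values of 69.7, 71.5 and 64.0 FPKM overlapped those of WT. HSPA4 with GLUP did not overlap, at 74.3, 71.6 and 72.1 FPKM against 78.5, 75.9 and 75.4 FPKM (-0.075, adjusted p = 0.371). Between untreated genotypes DNAJC17, also named after its values were seen here, was the member closest to the threshold after HSPB1 (0.25 ± 0.07 SE, limma adjusted p = 0.0651). It passed without TEAD4KO GLUP replicate 16 (adjusted p = 0.0408). That library is in neither untreated group, so the difference stayed at 0.25 and this pass is no support. HSPD1 with GLUP was at 573, 611 and 560 FPKM against 518, 521 and 508 FPKM (0.17, adjusted p = 0.132).

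**Figure D4:**
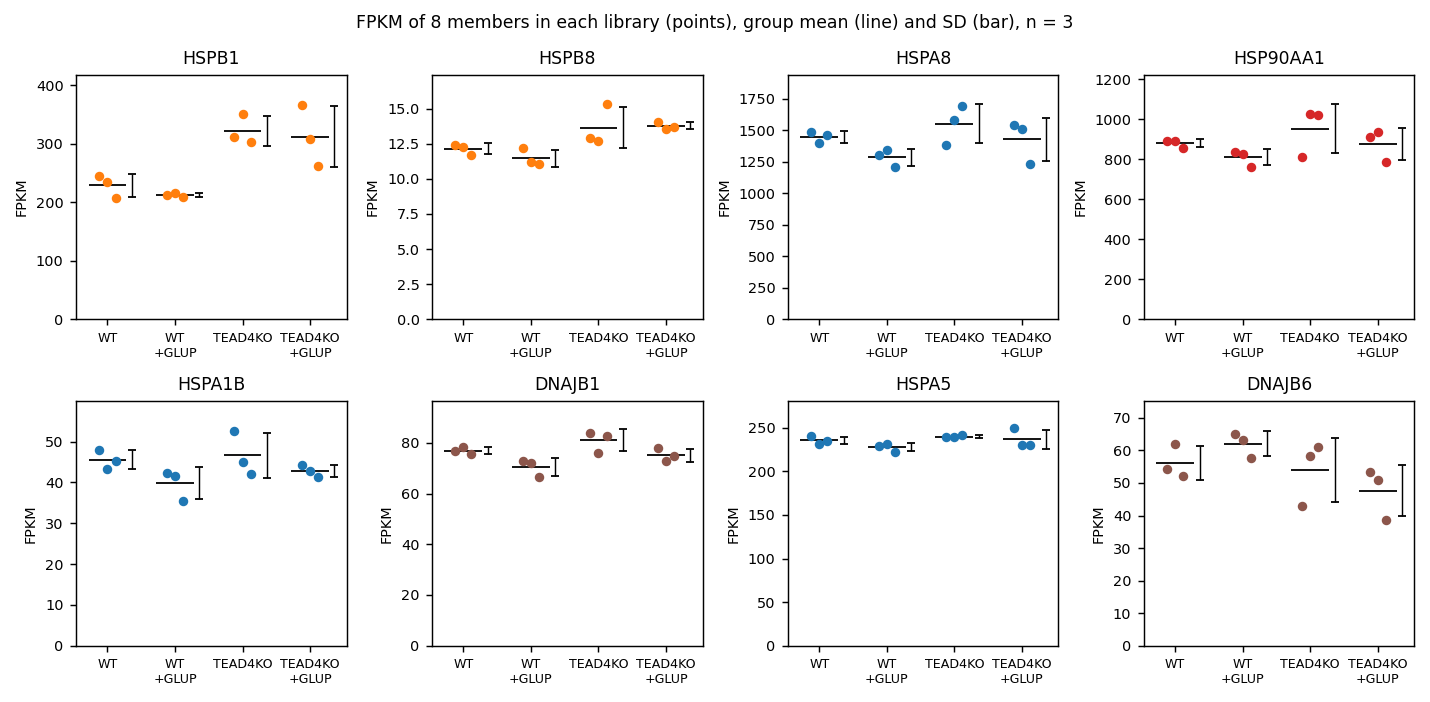
FPKM of 8 members in each of the 12 libraries, with 1 panel per gene and the groups on the x axis, as points for single libraries, a line for the group mean and a bar for the SD of 3 libraries, on axes that start at 0. Both TEAD4KO groups clear all 6 WT libraries in the panels of HSPB1 (262 to 365 against 207 to 245 FPKM) and HSPB8 (12.7 to 15.3 against 11.03 to 12.4 FPKM).

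Between genotypes, members reached low p-values in smaller shares than all rows did. An unadjusted p under 0.05 was found for 8 members untreated (13.8%) and 6 with GLUP (10.3%), against 21.7% and 23.9% of all rows. Groups that did not overlap were found for 4 members higher and 5 lower without GLUP, where all rows gave 18.3% and 7.47%, and for 8 higher and 4 lower with GLUP, where all rows gave 16.7% and 12.9%. The median difference of the members was 0.035 untreated and 0.027 with GLUP, against 0.023 and -0.0039 over all rows. The 95% intervals lay within 1.5-fold for 57 members untreated, HSPB1 being the exception, and for 56 with GLUP, HSPB1 and DNAJB6 being the exceptions.

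**Figure D5:**
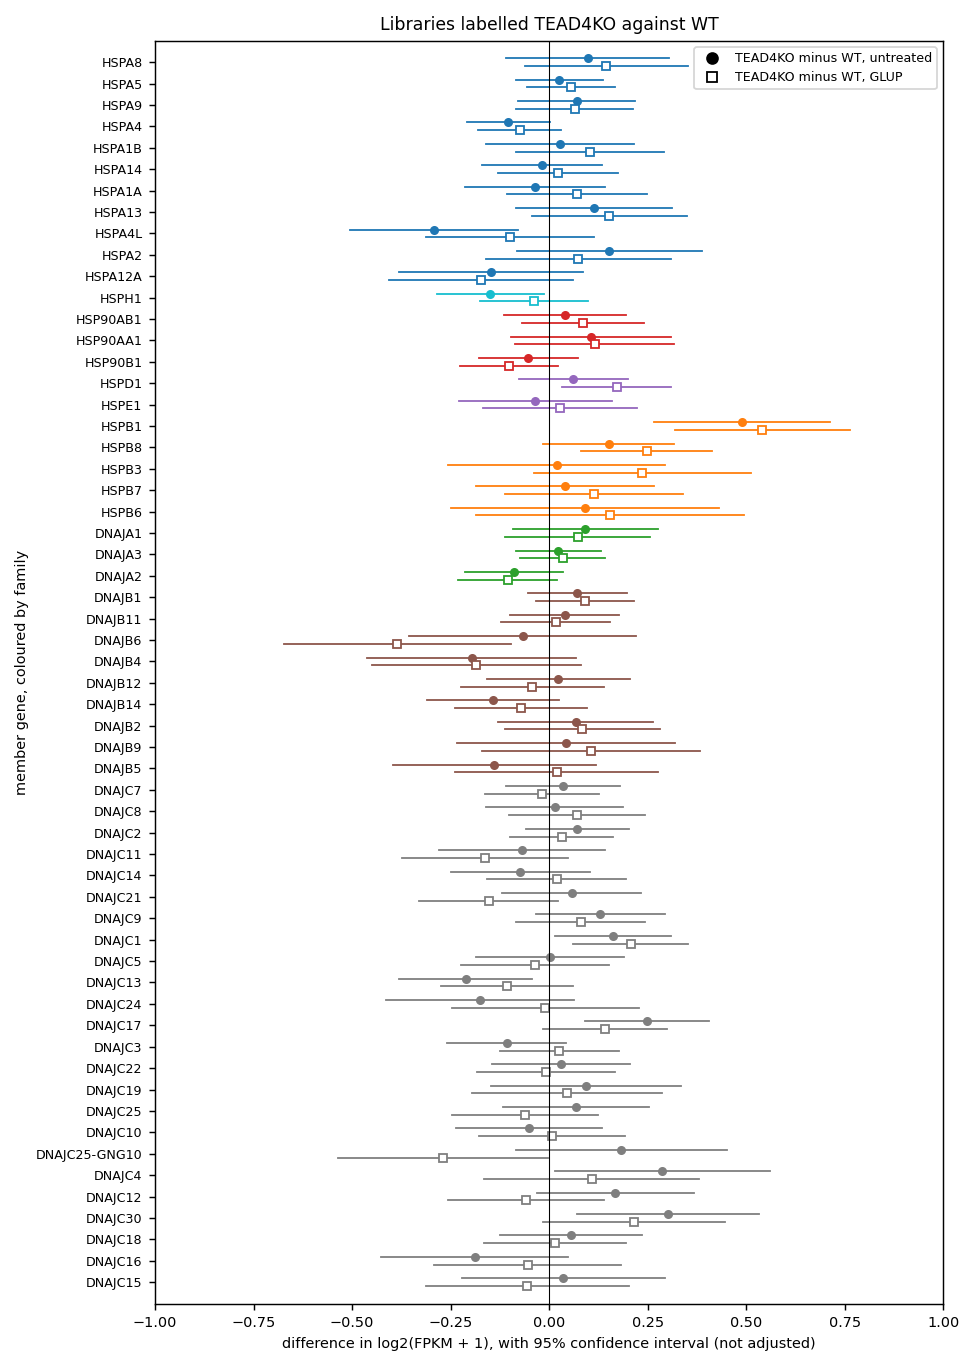
Difference in log2(FPKM + 1) between libraries labelled TEAD4KO and WT for each of the 58 members, with 95% confidence intervals not adjusted for multiple testing, untreated (filled circles) and with GLUP (open squares), coloured by family. HSPB1 at 0.49 and 0.54 lies to the right of all other members, and DNAJB6 at -0.39 with GLUP is the farthest to the left.

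Other genes of the folding network were counted from 6 lists. Of 19 genes induced by HSF1, 12 of which are members, none passed with GLUP in either genotype. In WT 1 was higher and 18 were lower, with a median difference of -0.10 against 0.0088 over all rows. In libraries labelled TEAD4KO 4 were higher and 15 lower, with a median of -0.065 against -0.017 (-0.027 after the GC and length correction, against -0.11 in WT). This direction was shared by the other lists. In WT, GLUP values were lower for 13 of 14 ER genes, 20 of 23 co-chaperones and 7 of 8 CCT chaperonin subunits. They were also lower for 8 of 12 mitochondrial chaperones and 3 of 4 heat shock factors and regulators. In libraries labelled TEAD4KO the lower counts were 8, 15, 8, 9 and 3 in the same order. In the HSF1 list HSPB1 passed between genotypes untreated. With GLUP, HSPB1 and SERPINH1, the collagen chaperone HSP47, passed. All were higher in libraries labelled TEAD4KO, counts that stand beside 5.42% and 5.84% of all rows. SERPINH1 was at 262 ± 4.93 FPKM in WT with GLUP and 318 ± 19.0 FPKM in libraries labelled TEAD4KO (log2 difference 0.28 ± 0.07 SE, limma adjusted p = 0.0326). That call was lost after the GC and length correction (adjusted p = 0.0711) and in 7 fits that left out 1 library, namely untreated WT replicates 1 and 2, all 3 WT GLUP replicates and TEAD4KO GLUP replicates 14 and 15 (adjusted p from 0.0517 to 0.140). Lost as well were the calls without a filter (0.0612), with median-ratio scaling (0.0642), with quantile normalization (0.0983) and with the block and the correction together (0.0521). Of the factors themselves, HSF1 was at 19.4 ± 1.34 FPKM in untreated WT and 17.7 ± 0.591 FPKM with GLUP, and none of the 4 genes in the list of heat shock factors and regulators passed in any comparison.

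Among 14 ER chaperones and unfolded protein response genes, none passed with GLUP in either genotype. SDF2L1, an ER partner of DNAJB11, was higher in libraries labelled TEAD4KO in both states. It was at 25.4 ± 2.72 against 41.0 ± 6.57 FPKM untreated (log2 difference 0.66 ± 0.12 SE, limma adjusted p = 0.00897) and 23.4 ± 1.43 against 38.4 ± 6.33 FPKM with GLUP (0.68 ± 0.12, adjusted p = 0.00646). The first call was lost after the GC and length correction (adjusted p = 0.0776) and without WT replicate 3 (adjusted p = 0.0581), and the second was kept in every alternative (adjusted p of 0.0465 at most). XBP1, the transcription factor that drives part of this response, passed with GLUP (59.8 ± 2.66 against 78.4 ± 10.4 FPKM, 0.38 ± 0.09 SE, adjusted p = 0.0349). Its call was lost in 7 fits that left out 1 library, namely untreated WT replicates 1 and 3, all WT GLUP replicates and TEAD4KO GLUP replicates 14 and 15 (adjusted p from 0.0516 to 0.149). It was also lost without a filter (0.0843), with median-ratio scaling (0.0635) and with only the groups compared (0.0650). The ER members HSPA5, HSP90B1, DNAJB9, DNAJB11, DNAJC3 and DNAJC10 did not pass.

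Co-chaperones of HSP70 and HSP90 outside the heat shock families gave 4 of 23 genes untreated and 2 of 23 with GLUP, all higher in libraries labelled TEAD4KO, where 5.42% and 5.84% of all rows passed. STUB1 (CHIP), the ubiquitin ligase that marks HSP70 clients for degradation, was at 43.7 ± 2.18 against 58.2 ± 3.67 FPKM untreated (log2 difference 0.40 ± 0.07 SE, limma adjusted p = 0.00734) and 42.1 ± 0.908 against 56.4 ± 5.17 FPKM with GLUP (0.41 ± 0.07, adjusted p = 0.00549). HSPBP1, an exchange factor for HSP70, was at 18.9 ± 1.03 against 26.6 ± 2.57 FPKM (0.47 ± 0.11, adjusted p = 0.0239) and 16.8 ± 1.27 against 24.4 ± 4.02 FPKM (0.50 ± 0.11, adjusted p = 0.0161). BAG2, an exchange factor that inhibits STUB1, and CDC37, which brings kinases to HSP90, passed untreated at 0.27 ± 0.06 (adjusted p = 0.0257) and 0.24 ± 0.05 (adjusted p = 0.0246). After the GC and length correction BAG2 passed (adjusted p = 0.0292), while STUB1, HSPBP1 and CDC37 did not (0.205, 0.324 and 0.554 untreated, and 0.0775 and 0.151 for STUB1 and HSPBP1 with GLUP). The correction also passed BAG3, an exchange factor of selective autophagy, as lower untreated (0.0491) and BAG2 as higher with GLUP (0.0443). The untreated BAG2 call was lost with median-ratio scaling (0.0562), with only the groups compared (0.0927) and with the block and the correction together (0.0502). Untreated CDC37 was lost with median-ratio scaling (0.0906), quantile normalization (0.125) and only the groups compared (0.0873). HSPBP1 was lost untreated without a filter (0.0686), with median-ratio scaling (0.0611) and with quantile normalization (0.0516), and with GLUP in only the groups compared (0.0526). Single libraries decided several of these calls. Untreated STUB1 was at 0.0511 without WT replicate 3, BAG2 and CDC37 were lost without any 1 of the WT replicates or TEAD4KO replicate 2 (up to 0.106 and 0.147), and HSPBP1 without those or TEAD4KO replicate 3 (up to 0.118). With GLUP the HSPBP1 call was lost without WT replicates 14 or 16 or TEAD4KO replicates 14 or 15 (adjusted p from 0.0596 to 0.0876).

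The mitochondrial list of 12 genes and the 8 subunits of CCT, the cytosolic chaperonin for actin and tubulin, held no gene that passed in any comparison. In libraries labelled TEAD4KO the CCT median difference from WT was 0.086 untreated and 0.10 with GLUP, and that of the mitochondrial list 0.066 and 0.052, against 0.023 and -0.0039 over all rows. After the GC and length correction the CCT medians were 0.013 and 0.051, and those of the mitochondrial list 0.072 and 0.053.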

How the data were processed

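RNA-seq of 12 HGC-27 samples in 4 groups of 3 was analysed. The authors processed the reads on the Majorbio cloud platform and deposited FPKM per Ensembl gene, 1 column per sample, without pooling replicates. HISAT2, Cufflinks, RSEM and hg19 are named in the submitters' processing notes, whose versions and roles are not given in the sources used here. FPKM is relative, so a change in abundant genes shifts the rest, and GC bias stays in the values. No read numbers are given, so depth and its precision are unknown.

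From the deposited values, log2(FPKM + 1) of the 11225 rows that averaged 1 FPKM or more was fitted by 1 model of 4 group means with limma 3.58.1 in R 4.3.3 (intensity trend, no covariates). P-values were two-sided and adjusted by Benjamini-Hochberg over all 11225 rows within each of 6 comparisons. A call was an adjusted p under 0.05, with a fold limit of 2 as an alternative. A fold change on this scale understates that of low genes. The fit was tested on simulated data. Transcript length and GC content (98.7% of tested rows) were taken from GENCODE on GRCh37, promoters from RefSeq on GRCh38.p14. Python 3.11.15 was used for tables and figures.

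The members and lists (HSF1-induced genes, ER chaperones, mitochondrial chaperones, co-chaperones, CCT, heat shock factors) were chosen with earlier results of these data known. The text names 20 set members, called members and list genes, the 3 lowest p-values in a comparison without a call, the 2 highest members of each family and those nearest to 1 FPKM, and marks other choices.

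Replicate numbers come from the sample titles. Deviations from the group means correlated across genotypes at 0.106, 0.152 and 0.336 for numbers 14, 15 and 16, all above 0.1. For 1, 2 and 3 the correlations were -0.0569, 0.203 and -0.0149, not all above 0.1. The main fit paired no samples, and the replicate block, an alternative, held a term for every number, 1 to 3 included. Pairs with unlike GLUP numbers reached 0.134. GLUP and untreated samples share no number. Alternatives were a pseudocount of 0.1, no filter, a mean of at least 5 FPKM, median-ratio and quantile scaling, correction of each library for GC content and length (splines with 5 degrees of freedom), array weights, only the groups compared, the replicate block alone and with that correction, and each sample left out. Leaving out TEAD4KO untreated replicate 1 and TEAD4KO GLUP replicate 16 together was chosen after seeing the data, since they lay nearest to WT. Such a choice favours genotype differences, so adjusted p-values from that fit are no support for a call.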

Additional observations from a re-analysis of the deposited data

How the results depend on the processing

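The 0 members called for GLUP in WT, GLUP in libraries labelled TEAD4KO, GLUP over both genotypes and the interaction were 0 in every alternative run for each. Between genotypes the number called moved from 1. In untreated cells it was 0 without a filter, with median-ratio scaling, with the GC and length correction alone or with the replicate block, and with the fold limit, 3 with quantile normalization (HSPB1 higher, HSPA4 and HSPH1 lower), and 0 to 5 when libraries were left out (4 without TEAD4KO untreated replicate 3). With GLUP it was 0 with the GC and length correction (3.73% of all rows) and with the fold limit, and 2 with the replicate block (9.48%). It was 4 with quantile normalization (7.21% of all rows, HSPB1 higher, DNAJB6, HSP90AB1 and HSP90B1 lower). It was 5 with array weights, where 22.2% of all rows passed, and 1 to 9 when libraries were left out. The highest values, 5 and 9, came from leaving out TEAD4KO untreated replicate 1 and TEAD4KO GLUP replicate 16 together (19.9% and 27.8% of all rows). With GLUP the replicate block added the call of DNAJB6 and, on top of the GC and length correction, that of HSPB1 (adjusted p = 0.0488, against 0.0605 for the correction alone). It changed no other call of a member. The block could not be fitted for GLUP against untreated, since these groups share no number. The cause of these shifts was not tested.

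HSPB1 kept its direction in all 23 alternatives of each genotype comparison. Its call was lost in 6 untreated (adjusted p from 0.00313 to 0.182) and in 1 with GLUP (0.00052 to 0.0605), and its log2 difference ranged from 0.42 to 0.54 and from 0.42 to 0.66 when libraries were left out. Among the member differences recomputed under every alternative, those that reversed were those of HSPA5 (0.0067) and HSP90B1 (0.049) for GLUP in WT under quantile normalization, of HSP90B1 when single libraries were left out (-0.025 to 0.018, with 0.0048 without WT GLUP replicate 15), and of HSPA1A for GLUP in libraries labelled TEAD4KO without both libraries near WT (0.028, against -0.135 to -0.021 when 1 library was left out).

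Depth is unknown, so counting error could not be told apart from the spread between the 3 libraries of a group. Members with pseudogenes, near-identical copies or readthrough rows depend on how the authors assigned reads.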
